A study of Homo sapiens with 15 samples.

Results

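Adrenomedullin is the product of ADM, 1 of the 18858 genes whose RNA was counted in MDA-MB-231 cells. ADM was selected on the very counts described here, because its RNA was lower after depletion of YAP, of TAZ and of both while other genes known from the hypoxia response were higher. Those differences therefore chose the gene. They are given below as a description and carry no test. MDA-MB-231 is an established line of human triple-negative breast adenocarcinoma, and these cells carry the marks of that line, with high RNA of the mesenchymal filament gene VIM (236 CPM per kilobase of exon in siControl cells, where CPM is reads per library scaled to a common total), of CD44 (88.1) and of the keratin gene KRT18 (85.2) and almost none of the progesterone receptor gene PGR (0.00362).

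YAP and TAZ are the transcriptional co-activators at the end of the Hippo pathway, and the study examined their part in invadopodia, the protrusions with which these cells degrade matrix, using RNA to ask which protein changes had a counterpart in transcription. Cells of the Control group were left untransfected, siControl cells received a non-targeting pool, and the siYAP, siTAZ and siYAP+TAZ groups received a pool of siRNAs against YAP (gene YAP1), against TAZ (gene WWTR1) or both pools. Every group held 3 libraries. RNA was taken after 48 h of knockdown and a further 5 to 6 h on gelatin-coated plates, and no low-oxygen treatment is named in the labels. Libraries are called here by their group and the number in their label. Nothing in the labels says which libraries were grown or prepared together, so the spread between the libraries of a group may be partly technical. The paper names 3 independent sets of experiments for the RNA, but its text does not assign libraries to them. All groups come from a single line and were read as bulk RNA, in which fewer cells that make a transcript and less of it per cell cannot be told apart. The siYAP+TAZ cells received 2 pools at once and so more siRNA in all, which cannot be told apart from the loss of both proteins.

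Adrenomedullin is a secreted peptide that relaxes blood vessels, supports the endothelium and promotes the growth of new vessels. It signals through the calcitonin receptor-like receptor paired with a receptor activity modifying protein (RAMP), which raises cyclic AMP in the receiving cell. The ADM gene is a classical target of the hypoxia-inducible factors, and many tumour cells make the peptide.

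ADM (ENSG00000148926.10) lies on the plus strand of chromosome 11 at positions 10305073 to 10307397 of GRCh38, the build the authors also used, and its canonical transcript (ENST00000278175.10) has 4 exons and 1492 bases. In GENCODE release 44 no gene overlaps it on either strand, and 0 of its 2505 stretches of 50 bases occur in another annotated transcript, so its reads are not shared with a paralogue or an antisense gene. The divergent transcript ADM-DT ends 1368 bases upstream and was not analysed here. Because the hypoxia-inducible factors, TEAD and AP-1 act through short DNA words, the bases just before the ADM start are shown from the RefSeq table (GRCh38.p14, plus strand), with the words found in capitals.

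ADM, chr11:10304878-10305072: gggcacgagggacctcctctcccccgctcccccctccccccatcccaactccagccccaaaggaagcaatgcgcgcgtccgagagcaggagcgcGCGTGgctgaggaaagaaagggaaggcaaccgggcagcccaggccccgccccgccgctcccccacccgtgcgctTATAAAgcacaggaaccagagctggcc

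The first capitals are GCGTG, 1 of the 2 core words of hypoxia response elements, which starts 101 bases before the transcript start. The second are TATAAA, the TATA box word, which starts 27 bases before it. The search covered both strands of the 250 bases before the start, of which only the 195 outside the neighbouring gene SBF2 are shown. GCGTG occurred in 44.0% of the 11856 upstream windows of the same length that belong to counted genes, and TATAAA in 6.02%. Of the 25 hypoxia genes with a window, 10 held GCGTG. The other core word, ACGTG, was found in 22.9% of all windows, in 16 of those 25 hypoxia genes and not in that of ADM. The TEAD word GGAATG (9.71% of all windows, 6 of 16 windows of YAP/TAZ target genes) and the AP-1 word TGANTCA (4.32%) were not found in it either. Such matches describe letters in a short window and not binding, and distal sites lie outside it.

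The siRNAs themselves bear on a gene that was low with either pool, so their sequences were set against the ADM transcript. An siRNA can lower a transcript other than its target when bases 2 to 8 of the guide strand, the seed, pair with it. In the sense strands below, taken from the study's list of oligonucleotides, the capitals mark bases 12 to 18, which have the letters of a seed match. Shown are the control sequence in that list, which gives 1 for the non-targeting pool, and those of the 8 siRNAs whose seed match occurs in the canonical ADM transcript.

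siControl: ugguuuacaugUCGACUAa
siYAP 2: gaacauagaagGAGAGGAg
siTAZ 3: ggacaaacaccCAUGAACa

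The seed match of siYAP 2 occurred once in ADM, at base 997, in the 3′ untranslated region. That of siTAZ 3 occurred once, at base 472, in the coding sequence. Seed matches of this kind are common, since 35.0% of the 15696 canonical transcripts searched hold that of siYAP 2 and 21.3% that of siTAZ 3, against 3.06% for the listed control sequence. Other members of the control pool were not analysed here. The longest unbroken run shared with ADM was 11 bases for siYAP 2 and 8 for siTAZ 3, and the other 6 siRNAs of the pools had no seed match in ADM. Whether these matches take part in the level of ADM was not tested.

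ADM RNA was abundant in control cells and lower in every knockdown library. In normalized counts, which are reads scaled to a common library size, ADM stood at 3487, 3128 and 4150 in Control libraries 16, 21 and 26 and at 3581, 3550 and 3393 in siControl libraries 17, 22 and 27. It stood at 1570, 1233 and 1201 in siYAP libraries 18, 23 and 28, at 1781, 867 and 1279 in siTAZ libraries 19, 24 and 29, and at 1669, 1401 and 1620 in siYAP+TAZ libraries 20, 25 and 30. The highest knockdown library (1781) lay well under the lowest library of both control groups (3128), while the 3 knockdown groups overlapped one another, as did the 2 control groups. These values rest on 740 to 4210 ADM reads per library.

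**Figure D1:**
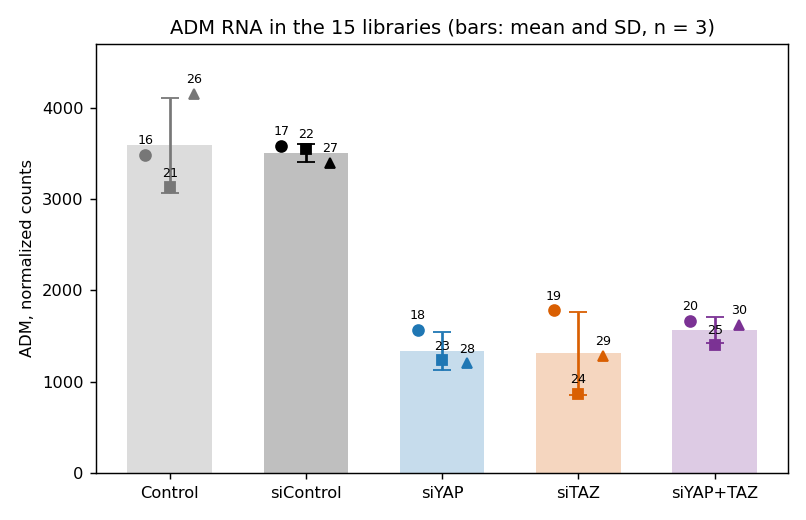
ADM RNA in normalized counts (y axis, from 0) in the 5 groups (x axis). Points are single libraries with the number of their label, bars are group means and error bars the SD (n = 3); the 9 knockdown libraries lie between 867 and 1781 and the 6 control libraries between 3128 and 4150.

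The group means were 3588 ± 518 for Control, 3508 ± 100.5 for siControl, 1563 ± 143 for siYAP+TAZ, 1334 ± 205 for siYAP and 1309 ± 458 normalized counts for siTAZ (SD, n = 3 each). In that order, the only step that the libraries did not overlap across was the one from siControl to siYAP+TAZ. The spread was smallest in siControl (coefficient of variation 2.86%) and largest in siTAZ (35.0%), where library 24 held 867 and library 19 held 1781. Per length, ADM fell from 63.8 CPM per kilobase of exon in siControl, place 631 of 15696 genes with a known length, to 24.3 in siYAP (place 1922), 23.8 in siTAZ (place 2027) and 28.4 in siYAP+TAZ (place 1607). In all 3 knockdowns the gene stayed at or above 87.1% of these genes.

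As a log2 difference from siControl in the fit over all genes, ADM was at -1.39 (SE 0.20) in siYAP, -1.42 (SE 0.21) in siTAZ and -1.17 (SE 0.20) in siYAP+TAZ. These 3 values share the siControl libraries. Against untransfected cells they were -1.43, -1.45 and -1.20, and siControl itself differed from Control by -0.03. Within each run of consecutive library numbers, the only order the labels give, siYAP held 43.8%, 34.7% and 35.4% of the siControl library, siTAZ 49.7%, 24.4% and 37.7% and siYAP+TAZ 46.6%, 39.5% and 47.7%.

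Few genes shared this pattern at a comparable level. All 9 knockdown libraries lay below all 3 siControl libraries for 636 genes (3.37% of those tested), ADM included, and below all 6 control libraries for 306. Among the 10640 genes that averaged 100 or more normalized counts, 4 were lower by at least 1 on the log2 scale in all 3 knockdowns, and ADM was first when genes were placed by the smallest of their 3 differences. Among all genes, weakly expressed ones included, ADM was at place 25. The others were KISS1 (the precursor of kisspeptin, which restrains metastasis), the hyaluronan synthase gene HAS2 and the YAP/TAZ target ANKRD1. Their log2 differences in siYAP, siTAZ and siYAP+TAZ were -1.11, -1.33 and -1.24 for KISS1, -1.06, -1.23 and -1.02 for HAS2 and -1.02, -1.31 and -1.36 for ANKRD1.

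A gene was called when the edgeR adjusted p was at most 0.05 and the absolute log2 difference at least 1. That was so of 0.0955% of genes in siYAP, 0.212% in siTAZ and, in siYAP+TAZ, 3.14% in the higher and 0.318% in the lower direction. Lower calls in all 3 knockdowns were made for 4 genes, namely ADM, S1PR1 (a receptor of sphingosine 1-phosphate), KIF17 (a kinesin motor) and MUSK (a receptor kinase of the neuromuscular junction). The other 3 were weakly expressed, with siControl means of 140.4, 107 and 139 normalized counts. Since ADM was chosen for these differences, nothing is read from its place among them.

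Between the knockdowns the ADM values overlapped. The choice of ADM drew on these same libraries, so their differences are also given as a description, with no test. ADM in siYAP+TAZ differed from siYAP by 0.23 on the log2 scale (SE 0.20, ±2 SE interval -0.18 to 0.64) and from siTAZ by 0.25 (SE 0.21, interval -0.16 to 0.66). The second value rests on single siTAZ libraries, being 0.54 without library 19 and 0.036 without library 24. The first was 0.36 without siYAP library 18. Between the single knockdowns, siTAZ differed from siYAP by -0.02 (SE 0.20, interval -0.43 to 0.39), which turned to 0.11 without siYAP library 18 and to 0.19 without siTAZ library 24. The intervals leave room for a rise or a fall of ADM in each case, and do not show that the levels are alike. Among all genes 0.742%, 0.78% and 0.0636% were called in these 3 comparisons, from which nothing is read about ADM. The differences of the single knockdowns from siControl add up to -2.81 on the log2 scale, and ADM in siYAP+TAZ lay 1.64 above that sum. No SE was computed for this gap, and both summed differences chose the gene and share the siControl libraries. More WWTR1 RNA was also left in siYAP+TAZ (62.1% to 71.0% of the siControl mean) than in siTAZ (14.1% to 45.8%). Nothing is read from the gap.

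Among the canonical targets, CCN1, a secreted matrix protein gene that YAP and TAZ switch on directly, had siControl values of 49434, 47424 and 41766 normalized counts and siYAP+TAZ values of 22835, 20816 and 18151. It was lower in siYAP+TAZ than in siYAP by -0.68 (SE 0.12, edgeR adjusted p = 0.0037) and than in siTAZ by -0.52 (SE 0.12, edgeR adjusted p = 0.021). For CCN2, which encodes a related protein, the same differences were -0.35 and -0.32 (edgeR adjusted p = 0.28 and 0.34), in a fit without a block. By run of consecutive library numbers, CCN2 was lower each time in siYAP+TAZ (5979, 5710 and 4551 normalized counts) than in siYAP (7532, 7364 and 5781). Against siTAZ (8856, 5403 and 5977) it was lower in the first and last run and higher in the middle one. A further step thus did not pass the adjusted p for every target.

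How much RNA of the siRNA targets was left varied between libraries. In siYAP libraries 18, 23 and 28, YAP1 RNA was 23.4%, 64.0% and 17.6% of the siControl mean, and ADM 44.8%, 35.1% and 34.2%. Library 23 kept the most YAP1 RNA of its group, while its ADM lay between those of the other siYAP libraries. In siTAZ libraries 19, 24 and 29, WWTR1 RNA was 45.8%, 14.1% and 28.8% of the siControl mean, and ADM 50.8%, 24.7% and 36.5%. Here ADM and WWTR1 had the same order, with the least of both in library 24. In siYAP+TAZ libraries 20, 25 and 30, YAP1 was at 51.8%, 51.0% and 41.5%, WWTR1 at 62.7%, 62.1% and 71.0% and ADM at 47.6%, 39.9% and 46.2%.

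**Figure D2:**
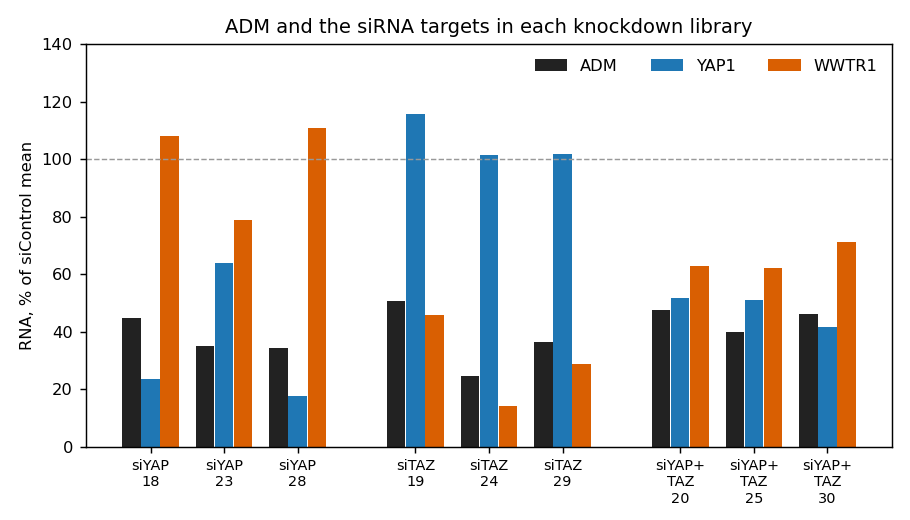
RNA of ADM, YAP1 and WWTR1 in each knockdown library (x axis) as a percentage of the siControl mean (y axis, dashed line at 100%). Bars are single libraries; WWTR1 and ADM have the same order over the siTAZ libraries, and ADM lies between 24.7% and 50.8% in all 9.

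Over all 15 libraries, after the group means had been taken off, ADM and WWTR1 deviated together (Pearson r = 0.88) and ADM and YAP1 did not (r = -0.0013). These r describe 15 libraries in which the siTAZ group holds most of the spread of both genes, and libraries share their preparation and depth. As bulk RNA levels, the knockdowns were themselves incomplete. YAP1 in siYAP+TAZ was at -1.06 on the log2 scale (edgeR adjusted p = 0.072, but past both thresholds in DESeq2 at -1.05 and in limma-voom at -1.06) and WWTR1 at -0.62 (edgeR adjusted p = 0.20).

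Other genes of the hypoxia response went the other way. The 30 genes of this list (glycolysis, pH control, angiogenesis and the oxygen-sensing hydroxylases) had a median log2 difference from siControl of 0.50 in siYAP+TAZ, beside -0.0048 over all genes, and 29 of the 30 were above 0. Both thresholds were passed upward by 8 of the 30 and downward by 0, where 3.14% and 0.318% of all genes passed. By the adjusted p alone 21 were higher and 0 lower (9.97% and 8.39% of all genes). The choice of ADM used the rise of these genes, so these counts are a description.

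The genes past both thresholds were CA9 (a carbonic anhydrase of the cell surface, 2.29), NDRG1 (1.75), the aldolase gene ALDOC (1.65), the oxygen sensor EGLN3 (1.59), the glycolytic regulator PFKFB4 (1.38), DDIT4 (an inhibitor of mTORC1, 1.27), the repressor gene BHLHE40 (1.24) and VEGFA, the main angiogenic growth factor (1.01). VEGFA stood at 7917, 8697 and 7799 normalized counts in siControl and at 15836, 15729 and 17722 in siYAP+TAZ, without overlap. SLC2A1, the glucose transporter often named with them, was at 0.02. In the single knockdowns the medians were 0.20 for siYAP and 0.15 for siTAZ, and both thresholds were passed by CA9 alone in siYAP (1.24) and by 0 of the 30 in siTAZ. Against these medians ADM stood at -1.39 and -1.42.

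The RNA of HIF1A, the oxygen-regulated subunit of HIF-1, which drives ADM in low oxygen, did not fall. HIF1A held 5545, 5666 and 4740 normalized counts in siControl and 9829, 10456 and 7527 in siYAP+TAZ (log2 difference 0.80, SE 0.15, edgeR adjusted p = 0.0019), while in siYAP and siTAZ it was at 0.30 and 0.68 (edgeR adjusted p = 0.46 and 0.031). EPAS1, which encodes the related HIF-2 subunit, held 1793, 1761 and 897 normalized counts in siControl (libraries 17, 22 and 27), beside 2511, 2296 and 1188 for the co-knockdown (libraries 20, 25 and 30). The groups overlapped, although each siYAP+TAZ library was above the siControl library of its own run of consecutive numbers, and the last run was low in both groups. The log2 difference was 0.42 (edgeR adjusted p = 0.60), the same with the runs as a block, which did not bring it past the thresholds, and 0.17 to 0.70 with single libraries left out (siControl 27 and siYAP+TAZ 30). RNA says nothing of the stability of either protein, which oxygen controls. Of the 23 measured regulators on a list of hypoxia, AP-1, C/EBP and TEAD factors that also held the siRNA targets YAP1 and WWTR1, none passed both thresholds in siYAP+TAZ in edgeR, and by the adjusted p alone HIF1A and TEAD2 (0.34) were higher and TEAD1 (-0.29) and TEAD4 (-0.51) lower. These counts, 2 of 23 in each direction, are close to the 9.97% and 8.39% of all genes and are no result about the factors as a group.

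**Figure D3:**
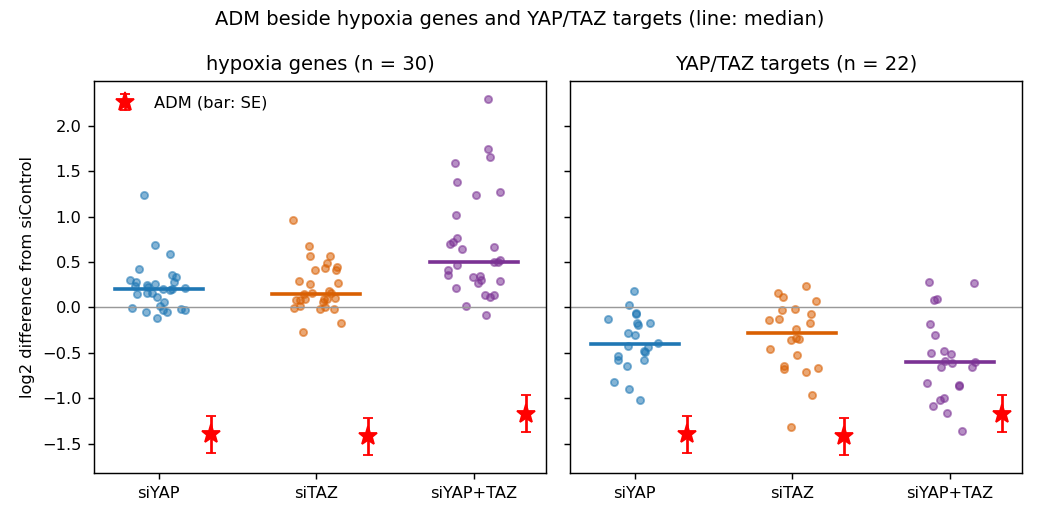
Log2 difference from siControl (y axis) in the 3 knockdowns (x axis) for 30 hypoxia genes (left) and 22 YAP/TAZ targets (right). Dots are genes, lines their medians, and the star is ADM with its SE; the hypoxia medians are 0.20, 0.15 and 0.50 and the target medians -0.41, -0.28 and -0.60, with ADM at -1.39, -1.42 and -1.17.

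ADM thus had the direction of the YAP/TAZ targets. Of 22 such genes, 3 passed both thresholds downward in siYAP+TAZ, ANKRD1 (-1.36, edgeR adjusted p = 0.023), CCN1 (-1.17, edgeR adjusted p = 8.4e-06) and the tissue factor gene F3 (-1.02, edgeR adjusted p = 0.00047), where 0.318% of all genes did, and 0 passed upward (3.14%). By the adjusted p alone 14 of the 22 were lower (8.39% of all genes) and NT5E was higher (0.27, 9.97% of all genes). Their median was -0.41 after the YAP pool, -0.28 after the TAZ pool and -0.60 after both. ADM had a larger difference than any of the 22 in both single knockdowns, the nearest being ANKRD1 in siTAZ (-1.31), whereas in siYAP+TAZ ANKRD1 lay below ADM. Since ADM was chosen for being lower in these comparisons, its direction and its place beside the targets are a description. The count of 3 was 1 without siControl library 17, without siControl library 22 or without siYAP+TAZ library 30, and 5 in limma-voom.

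The gene next to ADM moved in the opposite direction. AMPD3, which encodes an AMP deaminase of purine metabolism, starts 0.9 kb beyond the end of ADM on the same strand (chromosome 11, 10308313 to 10507579). It held 226, 251 and 199.5 normalized counts in siControl, 424, 393 and 475 in siYAP, 319, 404 and 348 in siTAZ and 707, 672 and 686 in siYAP+TAZ. Every knockdown library was above every siControl library, and the siYAP+TAZ libraries were above all of both single knockdowns.

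AMPD3 rose by 1.61 on the log2 scale in siYAP+TAZ (SE 0.11, edgeR adjusted p = 4.7e-08), where 3.14% of genes were called higher. In siYAP and siTAZ it was at 0.93 and 0.66 (edgeR adjusted p = 0.00099 and 0.0057), under the fold threshold. In siYAP+TAZ it was also higher than in siYAP by 0.68 (edgeR adjusted p = 0.00089) and than in siTAZ by 0.95 (edgeR adjusted p = 7.1e-05).

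On the other side of ADM, SBF2, a gene that reads away from it and whose annotated start lies 0.2 kb before that of ADM, had log2 differences of -0.02, -0.07 and 0.06 and overlapped siControl in every knockdown. The remaining 8 of the 5 nearest counted genes on each side lie 204.3 kb to 711.6 kb away. Among them RNF141 was higher in siYAP+TAZ by the adjusted p alone (0.48, edgeR adjusted p = 0.012), and none passed both thresholds in any knockdown. The low RNA of ADM was therefore not shared by either of its 2 immediate neighbours.

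**Figure D4:**
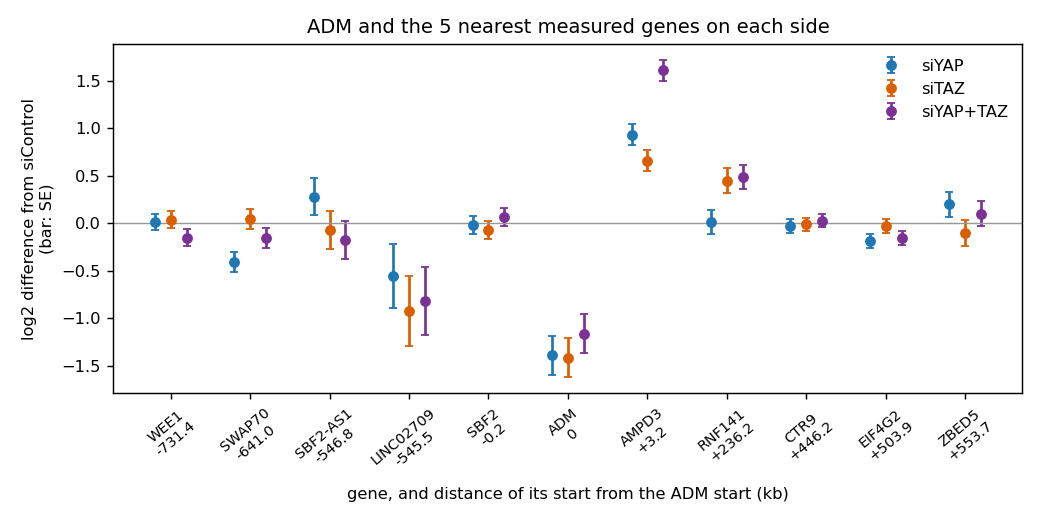
Log2 difference from siControl (y axis) in the 3 knockdowns for ADM and the 5 nearest counted genes on each side, in order of their start sites, with the distance of each start from that of ADM in kilobases under its name. Dots are fitted differences and bars their SE; ADM lies between -1.42 and -1.17, SBF2 near 0 and AMPD3 between 0.66 and 1.61.

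The other genes of the peptide's system were also looked up. Of 25 genes of the adrenomedullin system (related peptides, receptors, processing enzymes, binding and clearing proteins, without ADM), 13 were counted, and in edgeR none passed both thresholds in any of the 3 knockdowns, where few of all genes did (3.14% higher and 0.318% lower in siYAP+TAZ), so that nothing is read from the count. By the adjusted p alone 2 of the 13 were higher and 0 lower in siYAP+TAZ (9.97% and 8.39% of all genes). Leaving out siYAP+TAZ library 30 brought 1 gene, PCSK5, past both thresholds (1.15). The receptor gene CALCRL and its partners RAMP2 and RAMP3, and the decoy receptor gene ACKR3, were not analysed here.

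Of the receptor genes counted, RAMP1, whose product turns the same receptor towards the related peptide CGRP, held 417, 444 and 491 normalized counts in siControl and 508, 466 and 508 in siYAP+TAZ. The groups overlapped, and its log2 differences were 0.07 in siYAP, 0.21 in siTAZ and 0.13 in siYAP+TAZ. The calcitonin receptor gene CALCR was close to background, with 0 to 22.2 normalized counts over these libraries.

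Among the processing enzymes, PAM, which adds the amide that adrenomedullin needs for activity, held 3763, 3678 and 3056 normalized counts in siControl and 4269, 4435 and 3749 in siYAP+TAZ. The ranges overlapped, and the log2 difference was 0.25 (edgeR adjusted p = 0.17). PCSK5, a proprotein convertase gene, was higher by 0.91 (edgeR adjusted p = 0.045), and ECE1, an endothelin-converting enzyme gene, by 0.47 (edgeR adjusted p = 0.0064). The sister peptide gene ADM2 (intermedin) held 91.0, 84.1 and 74.0 normalized counts in siControl and 99.9, 119 and 71.6 in siYAP+TAZ, which overlap.

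Downstream of the receptor, 15 of 19 genes of cyclic AMP signalling were counted, and 1 passed both thresholds, upward, in siYAP+TAZ, beside 3.14% of all genes. This was RAPGEF4, an exchange factor opened by cyclic AMP, which held only 6.80, 4.62 and 3.22 normalized counts in siControl and 23.8, 26.9 and 13.8 in siYAP+TAZ. Among other vasoactive peptides, 7 of 18 genes were counted, of which 1 was called higher and 1 lower in siYAP+TAZ (3.14% and 0.318% of all genes). EDN1, the gene of endothelin-1, which constricts the vessels that adrenomedullin relaxes, was lower as ADM was. It held 954, 945 and 853 normalized counts in siControl and 446, 400 and 298 in siYAP+TAZ, without overlap (log2 difference -1.27, SE 0.25, edgeR adjusted p = 0.0041). In siYAP and siTAZ it was at -1.03 and -0.83 (edgeR adjusted p = 0.083 and 0.11). The galanin gene GAL was also lower, by the adjusted p alone (-0.79, edgeR adjusted p = 0.030). The angiotensinogen gene AGT passed upward on no more than 18.3 normalized counts in any library.

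The genes whose profile was most like that of ADM over the 15 libraries included a kinase, a stress factor and TEAD1. Likeness was the Pearson r of log2 CPM with each of 10639 other genes of at least 100 normalized counts on average, given as a description, since all genes share the same libraries and any gene low in the 9 knockdown libraries scores high. The highest r were those of PIM3, a survival kinase (0.96), MAFF, a small MAF factor of the stress response (0.95), PPME1 (0.94), WDR20 (0.94), C2CD2L (0.94), TEAD1, the DNA-binding partner of YAP and TAZ (0.92), the clock repressor gene CRY1 (0.92), C18orf25 (0.92), HAS2 (0.92) and the magnesium transporter gene CNNM4 (0.92).

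These genes moved far less than ADM, apart from HAS2. PIM3 held 2793, 2704 and 2622 normalized counts in siControl, 2043, 2021 and 2137 in siYAP, 2172, 1580 and 2072 in siTAZ and 2150, 2138 and 2198 in siYAP+TAZ. As with ADM, siTAZ library 24 was the lowest of all, and no knockdown library reached a siControl library. MAFF likewise had its lowest value, 1158, in siTAZ library 24. HAS2 held 674, 687 and 627 normalized counts in siControl and 341, 361 and 282 in siYAP+TAZ (log2 difference -1.02, SE 0.28), given with no test since its likeness to ADM picked it.

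At the other end stood LOXL1, a lysyl oxidase of elastic fibres (r = -0.96), PCNX2, RFFL, TMEM104 and ARL3 (-0.94 to -0.91). LOXL1 held 202, 190 and 233 normalized counts in siControl and 320 to 410 in siTAZ, with its highest value in library 24, where ADM was lowest. With the group means taken off, CNNM4 (0.93), PPFIA3 (0.90), DHX35 (0.89), VMA21 (0.89) and MAFF (0.88) deviated most like ADM, so that CNNM4 and MAFF shared both the steps between groups and the scatter within them. Of the genes on the lists, TEAD1 (place 6), ANKRD1 (0.89, place 21), CCN2 (0.86, place 38), CRIM1 (0.86, place 44) and EDN1 (0.86, place 45) were near the top. The lowest were NT5E, itself a YAP/TAZ target (-0.86, place 10609), HIF1A (-0.75), PRKAR1B (-0.74), RAMP1 (-0.72), ECE1 (-0.69), AK4 (-0.67) and VEGFA (-0.66).

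**Figure D5:**
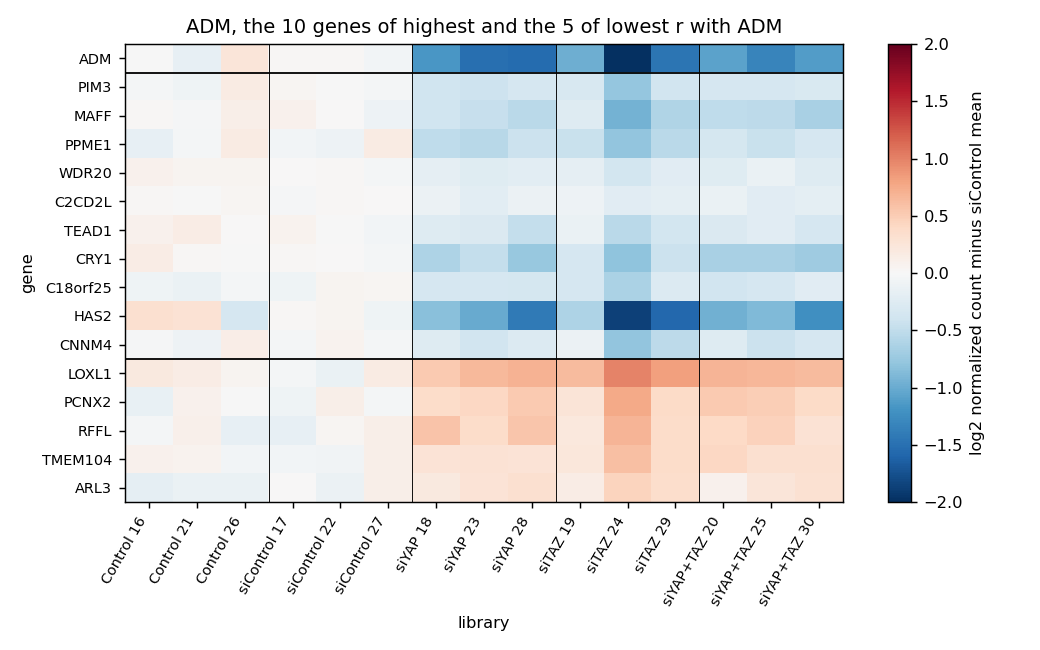
Log2 normalized count minus the siControl mean (colour, blue lower and red higher, scale -2 to 2) of ADM, the 10 genes of highest and the 5 of lowest r with it (rows) in the 15 libraries (columns). The rows of like genes are blue in all 9 knockdown libraries and those of the unlike genes red, with the deepest ADM value in siTAZ library 24.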

How the data were processed

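RNA was measured in 15 libraries of MDA-MB-231 cells, 3 in each of 5 groups, assigned by their titles. The authors made polyadenylated RNA libraries, aligned the reads to GRCh38 with STAR 2.4.2a (from the submitters' processing notes) and deposited raw read counts per gene, the input of every test here. Whether reads were counted by strand is not given in the sources used here. The authors' normalized and rlog values, and their log2 fold changes and p-values for pairs of groups, were not used. Total counts per library were 18696737 to 30107312, and genes of few counts carry large errors.

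Counts were scaled by TMM (factors 0.943 to 1.03) and fitted by the quasi-likelihood test of edgeR 4.0.16 (R 4.3.3), with robust estimation, one coefficient per group and no block. Benjamini-Hochberg adjustment ran over all 18858 genes, each of which had at least 5 reads in 1 library. The SE is the absolute log2 difference divided by the square root of F. On simulated counts for siYAP+TAZ against siControl, with 18858 genes, edgeR recovered 197 of 200 changed genes and called 2 unchanged ones. Recovery of differences close to the log2 threshold of 1, or with shifts shared by a run of libraries, was not tested separately. Alternatives were DESeq2 1.42.0 (also its size factors alone), limma-voom (limma 3.58.1), library size alone, a filter on low counts, only the groups compared, a block, Control as reference and leaving out each library.

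ADM, the gene lists and the rule for named genes were chosen with earlier results of these data known. The rule named list members past both thresholds (at most 8 a list), fixed members of each list (1 is not reported here), the 10 highest and 5 lowest r, the 5 highest r of deviations (prior count 2), the 5 nearest counted genes on each side and genes called lower in all 3 knockdowns. No p-value is given for ADM, since its own libraries chose it. KISS1 was named after its values were seen. Gene models and exon lengths came from GENCODE 44, which matched 15696 gene names (83.2%), and upstream sequences from RefSeq.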

Additional observations from a re-analysis of the deposited data

How the results depend on the processing

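ADM kept its direction in each knockdown against siControl under every alternative run, with log2 differences of -1.53 to -1.32 in siYAP, -1.71 to -1.20 in siTAZ and -1.22 to -1.09 in siYAP+TAZ. All of these extremes came from leaving out single libraries, and the -1.71, without siTAZ library 19, was the one value that moved by more than the SD of log2 ADM within groups (0.29). Leaving out single libraries moved the difference of ADM in siYAP+TAZ from siYAP over 0.16 to 0.36 and that from siTAZ over 0.036 to 0.54. That of siTAZ from siYAP, -0.02, turned to 0.11 without siYAP library 18 and to 0.19 without siTAZ library 24 (range -0.32 to 0.19). A replicate block of runs of consecutive library numbers, which the labels do not name as pairs, gave ADM -1.18 in siYAP+TAZ and changed no direction of ADM.

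The count of adrenomedullin system genes past both thresholds, 0, ranged from 0 to 1 over the left-out libraries. That of YAP/TAZ targets, 3, was 5 in limma-voom and ranged from 1 to 4. Of the 10 genes most like ADM, 4 were also among the 10 highest by Spearman rho, 2 by deviations from group means, and 6 to 10 with a library left out (6 without siYAP library 28). The difference of SLC2A1, near 0, changed sign over the left-out libraries (-0.041 to 0.073). VEGFA, just past the fold threshold, fell under it without siControl library 17 or 27 or siYAP+TAZ library 30 (lowest 0.96). YAP1 in siYAP+TAZ passed both thresholds in DESeq2, in limma-voom, with only the groups compared and without siYAP library 23 or 28. Depth limits CALCR, PGR, AGT and RAPGEF4, whose few reads leave wide errors.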
